A study of Homo sapiens with 32 samples.

Results

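The HOX genes of the 4 human clusters were followed through 32 RNA-Seq libraries of 2 breast cell lines. Members were taken by name, as every protein-coding row whose symbol is HOXA, HOXB, HOXC or HOXD and a number, which gave 39 of 19815 protein-coding genes: 11 in HOXA, 10 in HOXB, 9 in HOXC and 9 in HOXD. All 39 stand in both tables. MCF10A is an immortalised, non-tumorigenic mammary epithelial line, and MDA-MB-231 is a triple-negative line from a metastatic breast carcinoma. Each line was grown in normoxia (N), in hypoxia at 0.5% O2 for 24 hours (H), in normoxia with the mTOR kinase inhibitor PP242 at 2.5 µM for 3 hours (NPP), or in hypoxia with PP242 (HPP). Total mRNA (T) and mRNA from the polysomal part of a sucrose gradient (P) were sequenced, and the 8 groups so formed in a line held 2 biological replicates each. Within a replicate, the T library and the P library of one treatment open their titles with the same number, and were taken as fractions of 1 culture. No genetic change separates the groups, MCF10A medium holds EGF, insulin, hydrocortisone and cholera toxin besides serum, and each line stands for 1 line only. Protein-coding counts ran from 29941384 to 45562798 per library in MCF10A and from 17989413 to 39107878 in MDA-MB-231.

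HOX genes code for homeodomain transcription factors that give cells their position along the body axis. The genes of a cluster lie in the order in which they are used from head to tail, so that low paralogue numbers mark anterior and high numbers posterior positions, and genes with the same number in different clusters descend from one ancestor. Adult cells keep part of the pattern of the site they came from. Trithorax-type complexes hold active HOX genes open and Polycomb complexes hold the others shut, and PBX and MEIS proteins of the TALE class bind DNA together with HOX proteins. In breast, several HOX genes are known for roles in gland development and for altered expression in tumours.

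Before the HOX genes, the lines were compared with their defining markers. Among 7 markers fixed for basal breast epithelium, the MCF10A libraries held KRT5 at a median of 2157 CPM (1348 to 3784), KRT14 at 1730 CPM, KRT17 at 249 CPM and DSP at 46.5 CPM, but the basal regulator TP63 reached at most 0.261 CPM, the epithelial cadherin CDH1 0.418 CPM and EPCAM 0.491 CPM. The same libraries held the mesenchymal markers VIM at a median of 2973 CPM, FN1 at 3360 CPM, AXL at 391 CPM, SPARC at 152 CPM, CDH2 at 62.5 CPM and ZEB1 at 21.4 CPM. Of the fibroblast markers, DCN stood at a median of 124 CPM and COL1A1 at 9.19 CPM, whereas LUM reached at most 0.0541 CPM. The endothelial and blood markers PECAM1, CDH5, PTPRC and CD3E reached at most 2.11, 0.0446, 0.117 and 0.00 CPM. In MDA-MB-231 COL1A1 stood at a median of 10.0 CPM, and DCN and LUM reached at most 0.461 and 1.08 CPM. The endothelial and blood markers reached at most 1.94 CPM there. MDA-MB-231 held VIM at a median of 3532 CPM, AXL at 747 CPM, FN1 at 118 CPM and ZEB1 at 53.3 CPM, SPARC and CDH2 at most at 0.645 and 1.24 CPM, and, of the basal markers, KRT5, KRT14, TP63 and CDH1 at most at 0.538 CPM and KRT17 at most at 5.65 CPM, but DSP at a median of 37.6 CPM and EPCAM at 11.0 CPM. Of the 3 receptors that define a triple-negative line, ESR1 and PGR reached at most 0.189 and 0.507 CPM, whereas ERBB2 measured 22.1 to 42.0 CPM, beside a median of 144 CPM in MCF10A. The keratins KRT8 and KRT18 of simple epithelium, fixed as luminal markers, stood at medians of 172 and 230 CPM in MCF10A and 321 and 335 CPM in MDA-MB-231. The luminal markers GATA3 and FOXA1 stood lower, at medians of 7.69 and 0.595 CPM in MCF10A and 6.80 and 0.779 CPM in MDA-MB-231. In the libraries labelled MCF10A 3 of the 7 basal markers thus stayed under 0.5 CPM, and MCF10A below means the line as labelled. In bulk RNA of this kind, fewer cells that express a gene and less RNA per cell cannot be told apart.

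Each line expressed part of the HOX complement. A gene was called silent in a line when it stayed under 0.1 CPM (CPM, the count scaled to a common library size after TMM) in all 16 libraries, tested when it passed the filter on low counts, and low in between. MCF10A had 20 tested, 3 low and 16 silent HOX genes, and MDA-MB-231 had 13 tested, 9 low and 17 silent. Of all 19815 protein-coding genes 13124 were tested in MCF10A and 13510 in MDA-MB-231. In total mRNA of normoxic cells the 39 genes together stood at 161 CPM in MCF10A and 37.4 CPM in MDA-MB-231. The word silent depends on its limit: under 0.5 CPM it covered 21 and 26 genes, and with 0 counts in every library it covered 6 MCF10A genes and 1 gene of MDA-MB-231.

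In MCF10A, HOXC was the most expressed cluster, at a sum of 117 CPM in T of N, followed by HOXA at 33.3 CPM and HOXB at 10.4 CPM. The 9 HOXD genes were all silent. HOXD3, HOXD4, HOXD9, HOXD12 and HOXD13 had 0 counts in all 16 libraries, and the other HOXD genes had 2 or 3 counts over all of them. A count of 0 in both T libraries of N allows up to 0.0395 CPM in MCF10A, from counting error only. In HOXA, HOXA4, HOXA5, HOXA9 and HOXA10 were among the tested genes, HOXA6 and HOXA7 were low at no more than 0.256 and 0.296 CPM, and the posterior HOXA11 and HOXA13 were silent at no more than 0.0423 and 0.0568 CPM. In HOXB, HOXB2, HOXB3, HOXB4, HOXB6 and HOXB13 were tested, HOXB9 was low at no more than 0.291 CPM, and HOXB1, HOXB5, HOXB7 and HOXB8 were silent at no more than 0.0261 CPM. HOXB6 and HOXC10 belong to the tested genes only narrowly, since their highest counts were 17 in any library and both reached them in H. In HOXC only HOXC12 was silent, with 1 count in 1 library.

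MDA-MB-231 showed another distribution. HOXB led with a sum of 23.0 CPM in T of N, HOXD held 8.43 CPM, HOXC 5.14 CPM and HOXA 0.875 CPM. At the anterior end of HOXD, 3 genes were tested (HOXD1, HOXD3 and HOXD4), HOXD12 was low at no more than 0.105 CPM, and HOXD8, HOXD9, HOXD10, HOXD11 and HOXD13 were silent at no more than 0.0922 CPM. HOXA13, at the posterior end, was the 1 tested HOXA gene; HOXA2, HOXA3 and HOXA7 were low at no more than 0.277, 0.138 and 0.130 CPM, and the other 7 were silent, HOXA4 with 0 counts in all 16 libraries. In HOXB, HOXB3, HOXB4, HOXB7, HOXB8 and HOXB9 were tested, HOXB2, HOXB5 and HOXB6 were low at no more than 0.156, 0.208 and 0.269 CPM, and HOXB1 and HOXB13 were silent at no more than 0.0922 CPM. In HOXC, HOXC5, HOXC6, HOXC8 and HOXC9 were tested, HOXC4 and HOXC11 were low at no more than 0.252 and 0.138 CPM, and HOXC10, HOXC12 and HOXC13 were silent at no more than 0.0922 CPM. The 17 silent genes had 16 counts together in replicate 2 of T in N, 12 in replicate 1 of P in H and 11 in replicate 2 of P in HPP, and no more than 5 in any other library. KRT5, at a median of 2157 CPM in MCF10A, had 5, 0 and 3 counts in these libraries, 4 in replicate 2 of T in HPP and at most 1 in the others, while KRT14 ran from 4 to 20 and KRT17 from 17 to 146 counts over the 16 libraries, at 4 and 17 in the first. The part of reads from the other line in these counts was not tested. Without the first of these libraries 19 genes were silent.

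**Figure D1:**
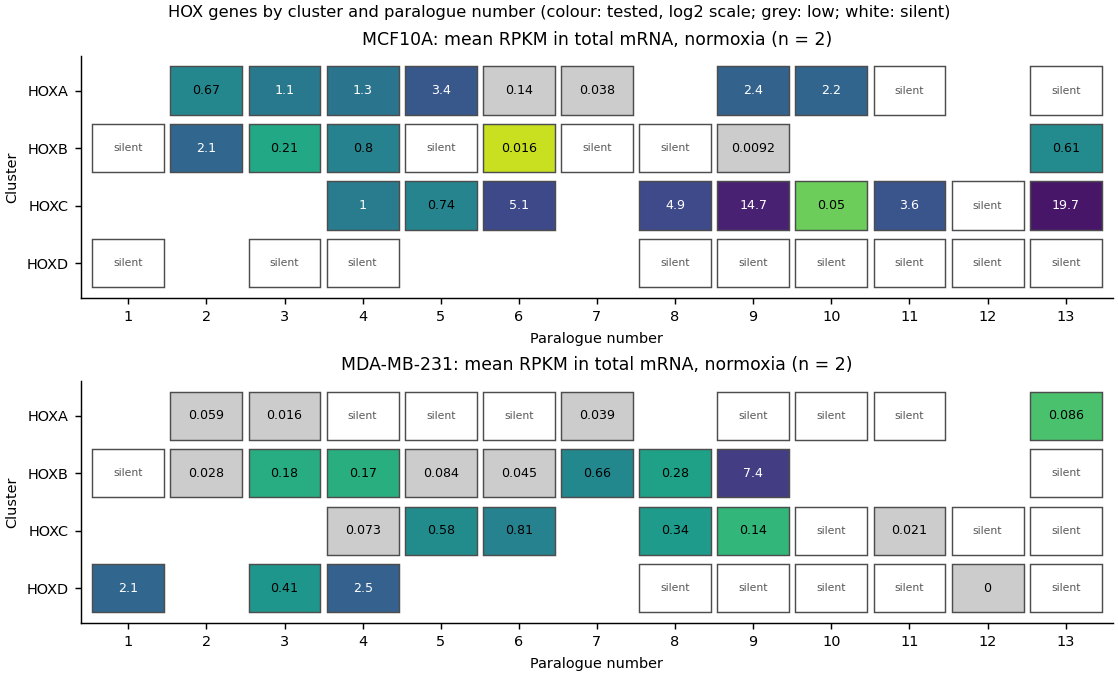
Map of HOX genes by cluster (rows) and paralogue number (columns) in MCF10A and MDA-MB-231. Numbers are mean RPKM in total mRNA of normoxic cells (n = 2), colour marks tested genes on a log2 scale, grey marks low and white silent genes. HOXC13 at 19.7 RPKM leads in MCF10A, where the HOXD row is silent, and HOXB9 at 7.41 RPKM leads in MDA-MB-231, where most of the HOXA row is silent.

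Set out by paralogue number, the active genes of the lines overlapped in part. Of the 39 HOX genes 6 were tested in both lines (HOXB3, HOXB4, HOXC5, HOXC6, HOXC8 and HOXC9), out of 20 for MCF10A and 13 for MDA-MB-231. Over all protein-coding genes 12374 were tested in both, out of 13124 and 13510. Whether 6 differs from the overlap of random draws of 20 and 13 among the 39 was not tested. Silent in both were 8 HOX genes (HOXA11, HOXB1, HOXC12, HOXD8, HOXD9, HOXD10, HOXD11 and HOXD13). Tested in MCF10A and silent in MDA-MB-231 were 8 genes, among them HOXA4, HOXA5, HOXA9, HOXA10, HOXB13, HOXC10 and HOXC13. Tested in MDA-MB-231 and silent in MCF10A were 6, namely HOXA13, HOXB7, HOXB8, HOXD1, HOXD3 and HOXD4. The same number could be filled by another cluster, as number 13 was by HOXC13 and HOXB13 in MCF10A and by HOXA13 in MDA-MB-231. Numbers 2, 10 and 11 had tested genes in MCF10A only (HOXA2, HOXB2, HOXA10, HOXC10 and HOXC11), number 7 in MDA-MB-231 only (HOXB7), and number 12 in neither line. Per length, groups 13 and 9 were highest in MCF10A, with summed levels of 20.3 and 17.1 RPKM in T of N. Groups 9 and 4 were highest in MDA-MB-231, with 7.54 and 2.75 RPKM.

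Per length, a few genes stood above the rest. In MCF10A, HOXC13, a regulator of hair and nail keratins, had 15.5 and 24.0 RPKM in the 2 T libraries of N, and its mean of 19.7 RPKM lay at percentile 89.2 of all protein-coding genes. HOXC9 followed with 15.4 and 14.1 RPKM, and since the nearest libraries of the pair lay at 15.5 and 15.4 RPKM their order was not beyond the spread. HOXA5, a gene of the fifth paralogue group, led HOXA with 3.54 and 3.23 RPKM, and HOXB2, a hindbrain patterning gene, led HOXB with 2.11 and 2.16 RPKM. In MDA-MB-231, HOXB9 had 7.15 and 7.66 RPKM, which placed it at percentile 76.4. HOXD4 had 2.33 and 2.68 RPKM and HOXD1 2.37 and 1.88 RPKM, which overlap. HOXC6 led HOXC with 0.848 and 0.773 RPKM, and HOXA13 led HOXA by its mean, with 0.0809 and 0.0909 RPKM. HOXA2 had 0 and 6 counts in these libraries, against 13 and 10 for HOXA13. With 2333 against 5071 exon bases, HOXA2 lay above HOXA13 in replicate 2. RPKM used exon lengths from GENCODE v44, whereas the tables carry older gene names, so lengths may differ from those behind the counts.

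The lines were compared directly in T of N, in 1 fit of all 32 libraries. Among the 27 HOX genes tested there, 23 were called at an adjusted p under 0.05, 16 lower and 7 higher in MDA-MB-231, against 40.7% of all 14298 genes tested. That count is set largely by the filter, since 21 of the 27 were tested in one line only and entered through the line where they are high, and nothing is read from it. Of the 6 tested in both lines 4 were called. HOXC13 had 3610 counts in the 2 MCF10A libraries and 2 in the 2 MDA-MB-231 libraries, a ratio of 1269 after depth with a 95% counting interval from 351 to 10480 (Clopper-Pearson, counting error only). HOXC11 had 902 against 3 counts, a ratio of 211 (72.1 to 1027), and HOXA10 had 622 against 1, a ratio of 437 (78.2 to 17295). The 3 counts of HOXC11 and the 1 of HOXA10 all stood in replicate 2 of MDA-MB-231, and without that library the genes were at least 125-fold and at least 86.3-fold higher in MCF10A, against a floor of 3 counts in the library left. HOXA9 and HOXA4 had 560 and 170 counts against 0, and set against a floor of 3 counts over the group they were at least 131-fold and at least 39.9-fold higher in MCF10A. In the other direction HOXB9 had 1016 counts against 2, a ratio of 723 (200 to 5976), and HOXD1 had 219 against 1, a ratio of 312 (55.3 to 12363). These low counts stood in replicate 2 of MCF10A, and without it HOXB9 was at least 216-fold and HOXD1 at least 46.5-fold higher in MDA-MB-231. HOXD4, HOXD3, HOXB7, HOXB8 and HOXA13 had 0 counts in MCF10A, and were at least 71.1-fold, 36.5-fold, 24.2-fold, 16.1-fold and 10.9-fold higher in MDA-MB-231. Among genes tested in both lines, HOXC9 stood at 24.6 ± 1.51 CPM (SD, n = 2) in MCF10A and 0.226 ± 0.00684 CPM in MDA-MB-231 (log2FC −6.80 ± 0.58 (SE), adjusted p = 6.43e-09). HOXC8 was also lower in MDA-MB-231 (log2FC −3.88 ± 0.40 (SE), adjusted p = 8.39e-08), as were HOXC6 (log2FC −2.71 ± 0.35 (SE), adjusted p = 2.34e-06) and HOXB4 (log2FC −2.27 ± 0.48 (SE), adjusted p = 0.000630). The 4 not called were HOXB3, HOXB6, HOXC5 and HOXC10, and the difference of HOXB3 was −0.28 with a 95% interval from −1.24 to 0.67 on the log2 scale. Each line stands in its own table, and the line and any difference in how its libraries were made cannot be told apart.

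Promoter stretches of 5 RefSeq starts are shown for genes that changed with treatment, since hypoxia acts on many genes through HIF factors that bind the core ACGTG. Each is the 250 bases before a RefSeq start in GRCh38.p14, read 5′ to 3′ on the strand of the gene. Capitals mark ACGTG or its reverse complement CACGT, and CACGTG, which holds both, counts on both strands. HOXA4 (MCF10A) and HOXD1 (MDA-MB-231) rose in hypoxia, HOXA9 (MCF10A) and HOXD4 (MDA-MB-231) fell in HPP, and HOXC5, called in HPP in both lines, shares its window with HOXC4, which was not called. That window ends beside the HOXC4 start and lies 16162 bases before the HOXC5 gene of GENCODE v44. The HOXA9 window lies at a start 9643 bases inside its outermost GENCODE start, and the other 3 start within 23 bases of theirs.
HOXA4 (chr7:27130758-27131007, - strand): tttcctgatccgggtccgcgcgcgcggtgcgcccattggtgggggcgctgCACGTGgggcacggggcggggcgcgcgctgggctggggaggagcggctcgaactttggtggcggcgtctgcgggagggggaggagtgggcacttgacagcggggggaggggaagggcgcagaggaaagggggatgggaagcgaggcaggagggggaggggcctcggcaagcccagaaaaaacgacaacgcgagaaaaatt
HOXD1 (chr2:176188418-176188667, + strand): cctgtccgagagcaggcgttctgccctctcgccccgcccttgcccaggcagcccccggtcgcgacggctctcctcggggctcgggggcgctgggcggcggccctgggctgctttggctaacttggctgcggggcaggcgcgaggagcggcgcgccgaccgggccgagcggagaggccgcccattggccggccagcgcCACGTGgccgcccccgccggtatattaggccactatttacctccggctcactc
HOXA9 (chr7:27165538-27165787, - strand): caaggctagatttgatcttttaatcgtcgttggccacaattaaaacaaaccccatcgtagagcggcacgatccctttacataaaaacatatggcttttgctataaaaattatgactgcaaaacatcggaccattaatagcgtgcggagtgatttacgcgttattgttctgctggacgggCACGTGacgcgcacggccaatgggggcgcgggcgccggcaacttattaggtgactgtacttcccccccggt
HOXD4 (chr2:176151300-176151549, + strand): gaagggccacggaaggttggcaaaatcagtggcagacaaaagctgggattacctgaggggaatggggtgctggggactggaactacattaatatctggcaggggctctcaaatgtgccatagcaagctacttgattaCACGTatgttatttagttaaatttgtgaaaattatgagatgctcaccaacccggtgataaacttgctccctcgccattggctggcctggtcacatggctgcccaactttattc
HOXC5 (chr12:54016638-54016887, + strand): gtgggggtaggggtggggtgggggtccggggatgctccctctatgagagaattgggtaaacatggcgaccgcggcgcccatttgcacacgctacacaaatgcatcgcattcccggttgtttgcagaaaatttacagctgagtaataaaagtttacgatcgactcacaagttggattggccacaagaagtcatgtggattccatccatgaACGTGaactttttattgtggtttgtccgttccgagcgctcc
All 5 windows hold the core: those of HOXA4, HOXD1 and HOXA9 as CACGTG, that of HOXD4 as CACGT, and the window at the HOXC4 start as ACGTG. Of the 34943 distinct RefSeq windows of this length, 18.5% hold it, and 14 of the 26 distinct windows of HOX genes do, among them those of the silent HOXD10, HOXD11 and HOXD13. Binding of HIF factors to the 5 windows was not tested. The homeodomain and PBX motif TGATTNAT was found in 2.49% of all windows and in none of the 5. RefSeq windows matched 20 of the 39 HOX genes, and HOXB3, HOXC8, HOXC11 and HOXC13 were not among them.

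In MCF10A under hypoxia alone, HOXA4 was the 1 HOX gene of 20 called in T (1.54% of 13124 genes were called), and it rose 4.37-fold. HOXA4 is an anterior gene of the fourth paralogue group. In T, HOXA4 measured 2.21 and 2.27 CPM in N, 8.69 and 11.1 CPM in H, 1.45 and 2.54 CPM in NPP and 8.06 and 9.64 CPM in HPP. In P, HOXA4 measured 1.97 and 1.41 CPM in N, 4.82 and 2.46 CPM in H, 1.67 and 1.89 CPM in NPP and 5.57 and 3.39 CPM in HPP. In T, both H and both HPP libraries lay above every N and NPP library. The rise in H had log2FC 2.13 ± 0.42 (SE), adjusted p = 0.0277. The rise in HPP had log2FC 1.95 ± 0.42 (SE), adjusted p = 0.00973 in T and log2FC 1.38 ± 0.42 (SE), adjusted p = 0.0348 in P. In P of H, where the 2 libraries also lay above those of N, none of the 20 HOX genes was called (1.49% of all genes; 2 HOX genes at an unadjusted p under 0.05 and 0 by DESeq2). The other 19 genes ran from −0.75 (HOXC8) to 2.92 (HOXB6) in T of H, and the smallest adjusted p among them was 0.205.

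HOXA4 shares 31.3% of its exon bases with RP1-170O19.22, which had 2 counts over the 16 libraries, and 14.7% with the antisense RNA HOXA-AS2, and the kit was not stated to keep strand, so whether reads from that stretch could be assigned is unknown. HOXA-AS2 measured 1.91 and 2.22 CPM in T of N and 1.74 and 2.61 CPM in H, and its part in the HOXA4 rise was not tested. The call in T of H was lost on leaving out either N library of T, either H library of T or either NPP library of P, with adjusted p up to 0.336. In T of HPP it was lost without replicate 1 or 2 of T in N (adjusted p = 0.0832 and 0.0880) or replicate 2 of T in HPP (0.0603), and the adjusted p over all alternatives ran from 9.72e-05 to 0.0880. In P of HPP it was lost without either N or NPP library of P, either HPP library of P or either N library of T, with adjusted p from 0.0116 to 0.185 over all alternatives.

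PP242 in normoxia lowered a pair of HOXC genes in MCF10A. In T, 2 of 20 HOX genes were called (0.648% of all genes), HOXC8 (log2FC −2.47 ± 0.43 (SE), adjusted p = 0.0319) and HOXC13 (log2FC −1.70 ± 0.32 (SE), adjusted p = 0.0372). In P, HOXC13 was the 1 gene called (0.823% of all genes; log2FC −2.02 ± 0.32 (SE), adjusted p = 0.0173), and DESeq2 called 3. With hypoxia and PP242 together, that pair and 4 others fell. In HPP against N, 7 of 20 HOX genes were called in T (14.9% of all genes) and 7 in P (22.2%), and they were the same 7 genes with the same signs: HOXA4 rose, and 6 fell, among them HOXA9, HOXC5, HOXC8, HOXC11 and HOXC13. The count in T was 4 without replicate 1 or 2 of T in N and 2 without replicate 2 of T in HPP, and that in P was 3 without replicate 2 of P in HPP. T and P are fractions of the same cultures, and the 2 counts are not independent of each other.

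The largest change was that of HOXC8, which patterns the thoracic and brachial region. In T, HOXC8 stood at 13.1 and 10.8 CPM in N, 8.40 and 5.94 CPM in H, 3.10 and 1.12 CPM in NPP and 0.424 and 0.234 CPM in HPP. In P, HOXC8 stood at 11.0 and 15.7 CPM in N, 8.63 and 11.9 CPM in H, 4.29 and 5.01 CPM in NPP and 0.697 and 0.705 CPM in HPP. Levels fell in the order N, H, NPP and HPP in T, the libraries of neighbouring conditions did not overlap, and in P the H libraries overlapped those of N. In HPP HOXC8 was 36.3-fold lower than in N in T (log2FC −5.18 ± 0.52 (SE), adjusted p = 0.000168) and 19.4-fold lower in P (log2FC −4.28 ± 0.48 (SE), adjusted p = 0.000240). Both calls held under every alternative, with adjusted p up to 0.0120 in T and 0.00588 in P.

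HOXC13 had the next largest changes and the highest starting level. In T, HOXC13 reached 36.5 and 56.5 CPM in N, 30.5 and 37.5 CPM in H, 11.5 and 16.3 CPM in NPP and 6.93 and 7.49 CPM in HPP. In P, HOXC13 reached 66.4 and 50.7 CPM in N, 35.8 and 39.2 CPM in H, 13.0 and 15.7 CPM in NPP and 10.1 and 6.61 CPM in HPP. All NPP and HPP libraries lay below all N and H libraries in both fractions. HOXC13 fell 6.58-fold in T (log2FC −2.72 ± 0.33 (SE), adjusted p = 0.000473) and 7.14-fold in P (log2FC −2.84 ± 0.33 (SE), adjusted p = 0.000303) in HPP, under every alternative. The NPP calls were less firm: in T that of HOXC13 was lost on leaving out any of the 16 libraries, with adjusted p from 0.0516 to 0.447, and that of HOXC8 was lost for 9 of 16, with adjusted p up to 0.283. Fitted to the libraries compared alone, they had adjusted p of 0.982 and 0.940. The HOXC8 estimate in T of NPP was −3.34 without replicate 1 of T in NPP. In P that of HOXC13 was lost without either N or either NPP library of P, with adjusted p from 0.0579 to 0.217.

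HOXC11, a posterior gene known from hindlimb and kidney, also fell. In T, HOXC11 gave 11.9 and 11.9 CPM in N, 13.7 and 16.2 CPM in H, 7.21 and 7.27 CPM in NPP and 4.66 and 3.90 CPM in HPP. In P, HOXC11 gave 8.99 and 8.10 CPM in N, 12.4 and 9.81 CPM in H, 5.62 and 6.44 CPM in NPP and 4.09 and 2.22 CPM in HPP. Both HPP libraries lay lowest in each fraction, and H lay above N. The fall in HPP was log2FC −1.50 ± 0.30 (SE), adjusted p = 0.00708 in T and log2FC −1.47 ± 0.30 (SE), adjusted p = 0.00605 in P. Without replicate 2 of HPP the adjusted p was 0.0736 in T and 0.0601 in P, within ranges over all alternatives of 4.67e-05 to 0.0736 and 2.69e-05 to 0.0686.

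HOXA9, a partner of MEIS1 in blood cells and leukaemia, fell as well. In T, HOXA9 had 7.42 and 7.35 CPM in N, 5.89 and 6.16 CPM in H, 4.85 and 3.66 CPM in NPP and 2.58 and 2.03 CPM in HPP. In P, HOXA9 had 3.31 and 4.05 CPM in N, 3.68 and 2.85 CPM in H, 2.97 and 2.76 CPM in NPP and 1.84 and 0.888 CPM in HPP. The HPP libraries were below all others in both fractions. The fall was 3.26-fold in T (log2FC −1.71 ± 0.35 (SE), adjusted p = 0.00751) and 2.77-fold in P (log2FC −1.47 ± 0.35 (SE), adjusted p = 0.0122). The call in T was lost without replicate 2 of N (adjusted p = 0.0505) or of HPP (0.0736), and that in P without the same replicates of P (0.0559 and 0.104), with ranges over all alternatives of 2.29e-05 to 0.0736 and 0.000286 to 0.108. The estimate in P was −2.10 without replicate 1 and −1.03 without replicate 2 of P in HPP. The readthrough gene HOXA10-HOXA9, which shares 13.1% of the exon bases of HOXA9, had 2 counts over the 16 libraries, while the antisense HOXA10-AS, which shares 13.9%, measured 0.148 to 1.06 CPM.

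HOXC5 had the lowest counts of the 7. In T, HOXC5 came to 1.12 and 1.26 CPM in N, 1.27 and 1.05 CPM in H, 0.325 and 0.892 CPM in NPP and 0.353 and 0.0780 CPM in HPP. In P, HOXC5 came to 1.34 and 1.32 CPM in N, 1.10 and 0.958 CPM in H, 0.461 and 0.108 CPM in NPP and 0.253 and 0.235 CPM in HPP. The HPP libraries lay below those of N and H in both fractions. The fall was log2FC −2.45 ± 0.73 (SE), adjusted p = 0.0433 in T and log2FC −2.46 ± 0.71 (SE), adjusted p = 0.0282 in P. The estimate is uncertain, since 67.3% of the exon bases of HOXC5 also belong to the non-coding RP11-834C11.14 and 37.9% to RP11-834C11.12, which had 0 counts in MCF10A. RP11-834C11.14 measured 2.35 and 1.86 CPM in T of N and 1.31 and 2.22 CPM in T of HPP. HOXC4, which shares the RefSeq window shown above, measured 3.24 and 2.51 CPM in T of N and 6.36 and 3.78 CPM in T of HPP, and was not called (log2FC 0.80 ± 0.48 (SE), adjusted p = 0.311). The HOXC5 call in T was lost for 11 of 16 left-out libraries, with adjusted p from 0.0135 to 0.258 over all alternatives, and in P without either N or either HPP library of P, with adjusted p from 0.00589 to 0.160. The estimate in T was −3.82 without replicate 1 and −1.76 without replicate 2 of T in HPP, and with all gene classes the call was lost at the threshold itself. Fitted to the libraries compared alone, the calls of HOXC5 in T (adjusted p = 0.0751) and of HOXA4, HOXA9 and HOXC11 in P (0.0859, 0.108 and 0.0686) were among those lost in HPP against N.

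**Figure D2:**
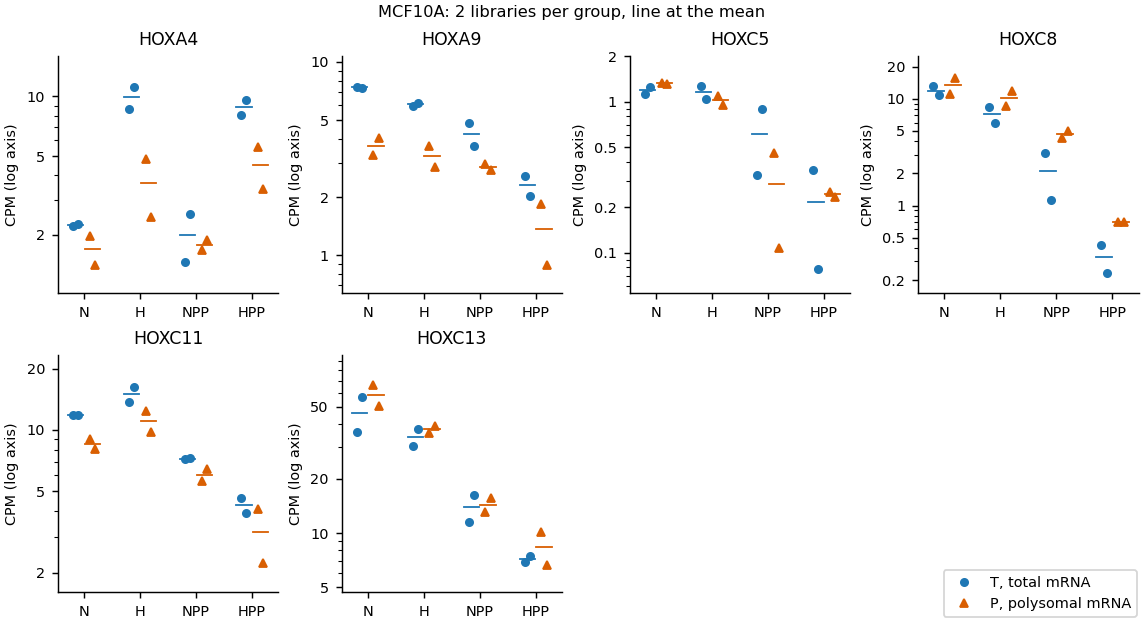
CPM of 6 HOX genes called in HPP against N in MCF10A, on log axes, in N, H, NPP and HPP. Circles are total and triangles polysomal mRNA, 1 point for each of 2 libraries, with a line at their mean. HOXC8 falls from 13.1 and 10.8 CPM in T of N to 0.424 and 0.234 CPM in HPP, while HOXA4 rises from 2.21 and 2.27 to 8.06 and 9.64 CPM.

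The 13 other tested genes of MCF10A ran from −0.69 (HOXA10) to 0.80 (HOXC4) in T of HPP, and from −1.40 (HOXB6) to 1.31 (HOXC4) in P. HOXC9, at 54.2 and 25.0 CPM in P of N and 19.3 and 12.5 CPM in P of HPP, was close to the threshold there (log2FC −1.35 ± 0.45 (SE), adjusted p = 0.0503). HOXA5 and HOXB2, the genes of highest RPKM in HOXA and HOXB, were not called either. In T, HOXA5 was at 6.09 and 5.56 CPM in N, 5.92 and 7.47 CPM in H, 5.74 and 9.86 CPM in NPP and 7.35 and 6.94 CPM in HPP. In T, HOXB2 was at 5.18 and 5.30 CPM in N, 6.18 and 6.82 CPM in H, 3.58 and 3.79 CPM in NPP and 3.53 and 4.49 CPM in HPP. In T the HPP libraries of HOXA5 lay above those of N, and those of HOXB2 below. The summed HOX counts were lower with PP242, as the sum of genes that went different ways: their counts for each 1000000 protein-coding counts were 152 and 162 in T of N and 156 and 148 in H, but 96.4 and 78.2 in NPP and 90.1 and 68.2 in HPP. In P they made up 139 and 141 in N and 142 and 118 in H, and the lowest library was replicate 2 of HPP with 58.9. In both fractions every library with PP242 lay below every library without it. HOXC13 alone held 35.8 and 55.1 of the sum in T of N and 6.21 and 5.33 in HPP. Without HOXC8, HOXC11 and HOXC13 the sum in T was 92.1 and 84.4 in N, at least 98.5 in H, 74.9 and 60.6 in NPP and 79.3 and 59.9 in HPP. In P the sum without them was 77.5 and 68.2 in N, 96.6 and 63.4 in H, 67.1 and 77.6 in NPP and 87.4 and 50.0 in HPP. The libraries with PP242 then still lay below the others in T, whereas in P the groups overlapped. The median log2FC in HPP was −0.29 over the 20 tested HOX genes in T and −0.60 in P, beside −0.01 and −0.04 over all 13124 genes.

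HPP was also set against H, which isolates PP242 in hypoxic cells but shares the HPP libraries with the comparison above. In T 5 of 20 HOX genes were called (3.74% of all genes), all lower in HPP, among them HOXA9, HOXC8 (log2FC −4.44 ± 0.50 (SE), adjusted p = 0.00122), HOXC11 and HOXC13 (log2FC −2.25 ± 0.33 (SE), adjusted p = 0.00377). In P 5 were called (6.50% of all genes), among them HOXC8, HOXC11, HOXC13 and HOXB6. HOXB6 had 0.339 and 0.414 CPM in P of H, 0.0394 and 0.0448 CPM in N, and 0.00 and 0.0261 CPM in HPP, and it passed the filter only through the H libraries, so its difference from them is no separate result. Fitted to the libraries compared alone, 0 of these calls were left in T and 1 in P. The call count in T was 1 without replicate 2 of T in HPP, 2 without replicate 1 of it or replicate 2 of H, and 3 without replicate 1 of H; in P it was 1 without replicate 2 of P in HPP and 3 without either H library of P. It stayed within 4 to 6 for the other left-out libraries, by count. The HOXA9 call in T (log2FC −1.40 ± 0.35 (SE), adjusted p = 0.0475) was lost for 11 of 16 left-out libraries, without a filter (adjusted p = 0.0532) and with all gene classes (0.0591), within a range over all alternatives of 0.00194 to 0.260. That of HOXB6 in P was lost for 12 of 16, with adjusted p up to 0.155, with DESeq2 (0.0779) and without a filter (0.0690), and its estimate ran from −6.64 to −3.70.

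Whether the HPP change exceeded the sum of the H and NPP changes was examined with a contrast added after the values were seen. By edgeR 0 HOX genes were called in either fraction of either line, with 3 of 20 in T and 2 of 20 in P of MCF10A, and 0 of 13 in T and 1 of 13 in P of MDA-MB-231, at an unadjusted p under 0.05. This contrast was not fitted with DESeq2. In MCF10A HOXC8 had −2.35 ± 0.60 (SE) on the log2 scale in P with an unadjusted p of 0.00213, and −1.97 ± 0.63 in T with 0.00953. HOXC11 had −1.33 ± 0.42 in P with 0.00840. The edgeR adjusted p was 1.00 for each, and 0 of 13124 genes were called in either fraction of MCF10A. In MDA-MB-231 1 of 13510 genes was called in each fraction.

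In MDA-MB-231 4 HOX genes were called against N, namely HOXB3, HOXC5, HOXD1 and HOXD4, of which HOXC5 was also called in MCF10A. Under hypoxia alone HOXD1 was called in T (1 of 13; 1.27% of 13510 genes) and in P (1 of 13; 2.29%). In T, HOXD1 read 4.48 and 3.55 CPM in N, 7.60 and 7.63 CPM in H, 4.53 and 4.76 CPM in NPP and 8.15 and 6.50 CPM in HPP. In P, HOXD1 read 4.03 and 3.61 CPM in N, 6.76 and 8.11 CPM in H, 4.99 and 5.34 CPM in NPP and 6.73 and 7.82 CPM in HPP. All H and HPP libraries lay above all N and NPP libraries in both fractions. HOXD1, an anterior gene of the HOXD cluster, rose 1.83-fold in T of H (log2FC 0.87 ± 0.19 (SE), adjusted p = 0.0354) and 1.96-fold in P (log2FC 0.97 ± 0.19 (SE), adjusted p = 0.0127). In HPP it rose 1.71-fold in T (log2FC 0.77 ± 0.19 (SE), adjusted p = 0.0145) and 1.87-fold in P (log2FC 0.90 ± 0.18 (SE), adjusted p = 0.00430). The non-coding HAGLR, which starts beside HOXD1 on the other strand and shares 7.69% of its exon bases, moved with it: in T it measured 12.7 and 13.6 CPM in N, 24.1 and 21.6 CPM in H, 12.5 and 11.6 CPM in NPP, and 21.8 and 23.3 CPM in HPP. RP11-387A1.6, on the other strand of 52.4% of the HOXD1 exon bases, had 10 counts over the 16 libraries. With strand not stated, the part of HAGLR in the HOXD1 counts was not tested.

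The HOXD1 call in P of HPP held under every alternative, with adjusted p up to 0.0440. In T of H it was lost on leaving out either N or either H library of T, replicate 1 of P in NPP or either HPP library of P, with adjusted p up to 0.239. In P of H it was lost without replicate 1 or 2 of P in N (adjusted p = 0.0501 and 0.140) or replicate 2 of P in H (0.112), with a range over all alternatives of 0.00273 to 0.140. In T of HPP it was lost without replicate 1 of T in HPP (0.105) or replicate 2 of T in N (0.126), with a range of 0.00720 to 0.126.

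PP242 in normoxia left no HOX gene of MDA-MB-231 called in T (0 of 13 by edgeR, with 0.555% of all genes called, 1 HOX gene at an unadjusted p under 0.05 and 0 by DESeq2) or in P (0 of 13 by edgeR, with 1.95% of all genes, 2 at an unadjusted p under 0.05 and 0 by DESeq2). In HPP 3 of 13 were called in T (13.2% of all genes), HOXB3, HOXD1 and HOXD4, and 4 in P (19.4%), the same 3 and HOXC5. The count in T was 0 without replicate 2 of T in N and 1 without either HPP library of T, and that in P was 2 without replicate 2 of P in N or either HPP library of P. HOXB3 and HOXD1 rose, and HOXD4 and HOXC5 fell. HOXB3 and HOXD4 pattern the hindbrain and neck.

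HOXB3 was called in both fractions. In T, HOXB3 registered 1.23 and 1.47 CPM in N, 1.38 and 0.939 CPM in H, 1.89 and 1.58 CPM in NPP and 2.07 and 3.65 CPM in HPP. In P, HOXB3 registered 0.852 and 0.852 CPM in N, 1.08 and 0.888 CPM in H, 1.20 and 1.09 CPM in NPP and 2.44 and 2.86 CPM in HPP. The HPP libraries were highest in both fractions. The rise was 3.04-fold in P (log2FC 1.60 ± 0.31 (SE), adjusted p = 0.00328), under every alternative, and 1.98-fold in T (log2FC 0.99 ± 0.31 (SE), adjusted p = 0.0464). The call in T was lost for 7 of 16 left-out libraries, with adjusted p up to 0.332 without replicate 2 of T in HPP, and with DESeq2 (0.0660), within a range over all alternatives of 0.0141 to 0.332. HOXB3 shares exon bases with HOXB4 and HOXB6 and with the antisense HOXB-AS1 and HOXB-AS3, at 5.83% for HOXB6, the largest share.

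HOXD4 lies within the span of HOXD3 on the same strand in GENCODE v44, and went the other way from HOXD1. In T, HOXD4 counted 2.65 and 3.04 CPM in N, 2.67 and 2.78 CPM in H, 1.71 and 2.18 CPM in NPP and 1.64 and 1.60 CPM in HPP. In P, HOXD4 counted 2.44 and 2.98 CPM in N, 2.39 and 2.81 CPM in H, 1.97 and 2.09 CPM in NPP and 1.47 and 1.65 CPM in HPP. Both HPP libraries were lowest in each fraction, and the NPP libraries lay between them and N. HOXD4 was 1.87-fold lower in T (log2FC −0.90 ± 0.24 (SE), adjusted p = 0.0229) and 1.78-fold lower in P (log2FC −0.83 ± 0.23 (SE), adjusted p = 0.0232). The call in T was lost without replicate 1 or 2 of T in HPP (adjusted p = 0.106 and 0.134) or replicate 2 of T in N (0.159), with a range over all alternatives of 0.00891 to 0.159. In P it was lost without replicate 1 or 2 of P in HPP (0.148 and 0.0823), without replicate 2 of P in N (0.134) and without a filter (0.0658), with a range of 0.00941 to 0.148.

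HOXC5, called in both lines, had the lowest counts here too. In T, HOXC5 amounted to 0.757 and 1.11 CPM in N, 0.315 and 0.743 CPM in H, 0.435 and 0.500 CPM in NPP and 0.732 and 0.119 CPM in HPP. In P, HOXC5 amounted to 0.775 and 1.25 CPM in N, 0.572 and 0.945 CPM in H, 0.307 and 0.353 CPM in NPP and 0.131 and 0.303 CPM in HPP. In P both HPP libraries lay below both N libraries, whereas in T replicate 1 of HPP, at 0.732 CPM, lay just under the lower N library at 0.757 CPM. The fall in P was log2FC −2.22 ± 0.67 (SE), adjusted p = 0.0312, and that in T was not called (log2FC −1.17 ± 0.64 (SE), adjusted p = 0.246). The call in P was lost without replicate 1 or 2 of P in N (adjusted p = 0.0612 and 0.184) or in HPP (0.222 and 0.0750), with a range over all alternatives of 0.00118 to 0.222. As in MCF10A the estimate is uncertain: RP11-834C11.14, on 67.3% of the HOXC5 exon bases, measured 0.151 to 0.614 CPM over the 16 libraries, beside 0.119 to 1.25 CPM for HOXC5 itself, and RP11-834C11.12 had 10 counts, and their part was not tested. The HOXC5 estimate was −1.78 without replicate 1 and −2.95 without replicate 2 of P in HPP. Fitted to the libraries compared alone, the calls of HOXD1 in H (adjusted p = 0.261 in T and 0.0982 in P), of HOXB3 in T of HPP (0.0738) and of HOXD4 in HPP (0.0616 in T and 0.0533 in P) were lost.

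**Figure D3:**
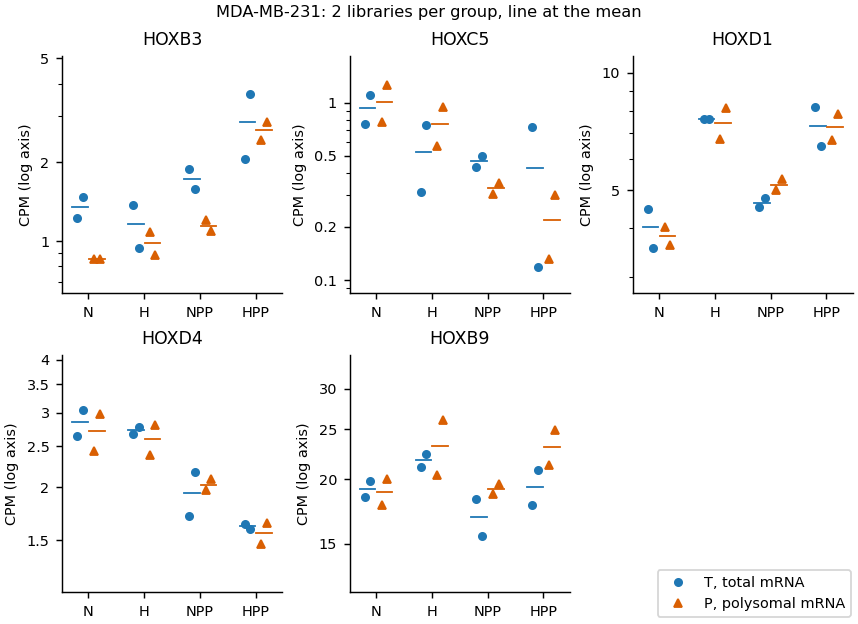
CPM of the 4 HOX genes called against N in MDA-MB-231, and of HOXB9, the HOX gene of highest level there, on log axes. Circles are total and triangles polysomal mRNA, 1 point for each of 2 libraries, with a line at their mean. HOXD1 lies between 6.50 and 8.15 CPM in T of H and HPP and between 3.55 and 4.76 CPM in N and NPP, while HOXB9 keeps between 15.5 and 22.4 CPM in T.

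The 10 genes of MDA-MB-231 not called in T of HPP ran from −1.17 (HOXC5) to 1.24 (HOXC9), and the 9 not called in P from −0.63 (HOXC9) to 1.45 (HOXA13). HOXB9, a thoracic patterning gene, is the member of highest level in this line. In T, HOXB9 kept at 18.5 and 19.8 CPM in N, 21.1 and 22.4 CPM in H, 18.3 and 15.5 CPM in NPP and 17.8 and 20.8 CPM in HPP. In P, HOXB9 kept at 17.8 and 20.0 CPM in N, 20.4 and 26.1 CPM in H, 18.7 and 19.6 CPM in NPP and 21.3 and 24.9 CPM in HPP. In HPP its change was log2FC −0.09 ± 0.16 (SE), adjusted p = 0.756 in T, with a 95% interval from −0.44 to 0.26, and 0.25 in P, with an interval from −0.09 to 0.60. HOXC6, the HOXC gene of highest RPKM, was not called. In T, HOXC6 held 2.93 and 2.67 CPM in N, 2.86 and 3.52 CPM in H, 3.35 and 2.63 CPM in NPP and 3.48 and 3.86 CPM in HPP. The summed HOX counts ran from 36.0 to 54.9 for each 1000000 over the 16 libraries. In T the N libraries, at 42.0 and 47.5, overlapped every other group. In P both N libraries, at 36.0 and 38.9, lay below all others, and HPP, at 47.5 and 54.9, lay above NPP, at 40.5 and 42.3, while H, at 41.0 and 52.6, overlapped both. These sums leave out the TMM factors, in T as well. In P the factors were 1.07 and 1.09 in N, 1.04 and 1.13 in H, 1.20 and 1.18 in NPP, and 1.20 and 1.18 in HPP. The place of N and H among the groups therefore depends on the scaling, and nothing is read from it. Against H, HPP showed 1 called HOX gene of 13 in T (3.78% of all genes), HOXB3 (log2FC 1.23 ± 0.30 (SE), adjusted p = 0.0364), and 2 in P (11.5%), HOXB3 (log2FC 1.40 ± 0.31 (SE), adjusted p = 0.0100) and HOXD4 (log2FC −0.78 ± 0.23 (SE), adjusted p = 0.0448). The call of HOXD4 was lost for 10 of 16 left-out libraries, with DESeq2 (adjusted p = 0.0687) and without a filter, that of HOXB3 in T for 4 and in P for 2 (either without replicate 2 of P in H or in HPP, adjusted p = 0.0846 and 0.0747).

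**Figure D4:**
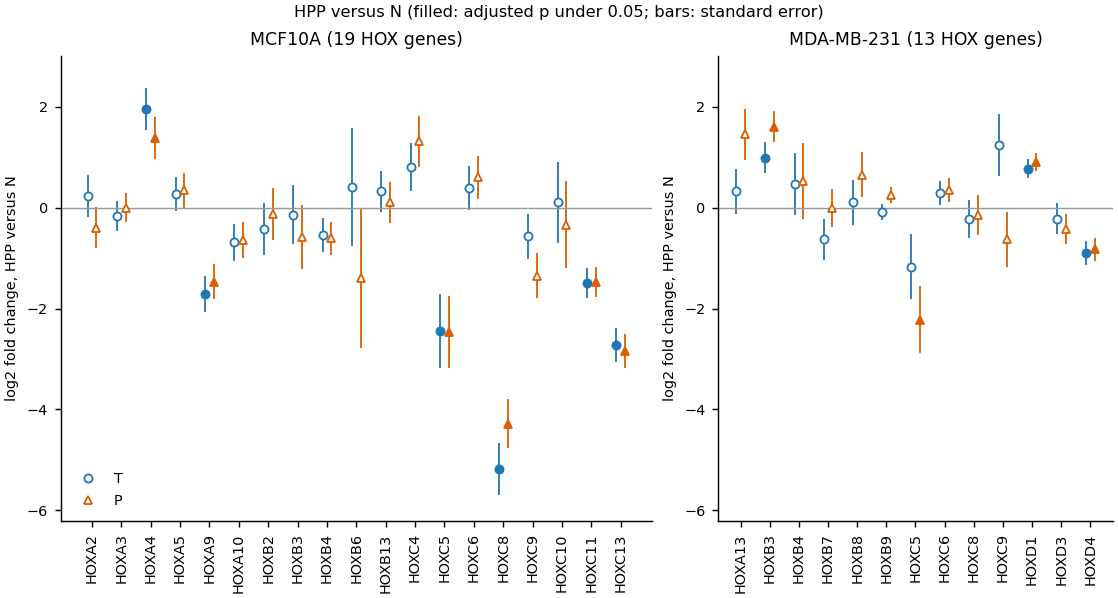
Log2 fold change of HPP against N for 19 of the 20 tested HOX genes of MCF10A and the 13 of MDA-MB-231, in total (circles) and polysomal mRNA (triangles). Bars are standard errors and filled symbols have an adjusted p under 0.05 over all genes. HOXC8 lies at −5.18 and −4.28 in MCF10A and at −0.23 and −0.15 in MDA-MB-231.

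The 6 genes tested in both lines allow the HPP change to be compared between them. HOXC8 was called in T (1 of 6; 3.52% of 12374 genes) and in P (1 of 6; 4.10%). In MDA-MB-231 it measured 1.01 and 0.645 CPM in T of N and 0.832 and 0.683 CPM in HPP, and 0.581 and 0.426 CPM in P of N and 0.394 and 0.520 CPM in HPP, so that the groups overlapped. The change in MDA-MB-231 minus that in MCF10A was 5.05 ± 0.59 (SE) in T (adjusted p = 0.000102) and 4.12 ± 0.58 in P (adjusted p = 0.000404). For HOXC5, HOXC6, HOXC9, HOXB3 and HOXB4 the difference was not called. For HOXC6 in T its 95% interval ran from −1.21 to 1.21, and it was 2.18 for HOXB3 in P, with an interval from 0.76 to 3.59 and an adjusted p of 0.0835.

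Translational efficiency (Te), the log2FC in P minus that in T, was called for few HOX genes. A gene was called at an absolute z-score over 1.5 among all genes tested together with a polysomal change, at an adjusted p under 0.05 in MCF10A and under 0.10 in MDA-MB-231. The thresholds are those of the study, but the measure is not, since the methods there write Te as a quotient of the log2FC in P and T, taken over genes already significant in polysomes. In MCF10A 0 of 20 HOX genes were called in H (0.107% of all genes), NPP (0.0305%) and HPP (2.60%), with 0 at an unadjusted p under 0.05 in the interaction test of edgeR, while the rule on DESeq2 fits called 0, 1 and 0. In MDA-MB-231 0 of 13 were called in H (0.148%) and NPP (0.740%), with 0 at an unadjusted p under 0.05 and 0 by DESeq2. In HPP 2 of 13 were called (1.39%), HOXA13, a gene of the most posterior paralogue group, upwards (z = 1.52, log2 difference 1.13 ± 0.68) and HOXC5, with the same overlaps, downwards (z = −1.67, −1.05 ± 0.93). At an unadjusted p under 0.05 in the interaction test stood 1 HOX gene, and the rule on DESeq2 fits called 1. In T, HOXA13 yielded 0.410 and 0.461 CPM in N, 0.413 and 0.274 CPM in H, 0.409 and 0.289 CPM in NPP and 0.530 and 0.624 CPM in HPP. In P, HOXA13 yielded 0.271 and 0.114 CPM in N, 0.269 and 0.344 CPM in H, 0.256 and 0.163 CPM in NPP and 0.473 and 0.563 CPM in HPP. The HPP libraries were highest in both fractions. The interaction test gave an adjusted p of 1.00 for both genes, also with the culture as a block (1.11 for HOXA13 and −0.83 for HOXC5), and leaving out any 1 of the 16 libraries left at most 1 of the 2 calls. The HOXC5 difference turned to 0.78 without replicate 1 of T in HPP, and that of HOXA13 was 1.81 without replicate 1 and 0.54 without replicate 2 of P in N. With the culture as a block, which sets P against T within each culture, the interaction test of edgeR called 0 HOX genes in any of the 6 comparisons. Over all genes it called 0 of 13124 in H, NPP and HPP of MCF10A, and 2, 8 and 75 of 13510 in MDA-MB-231. In NPP and in HPP of MDA-MB-231 1 HOX gene (HOXC9) had an unadjusted p under 0.05, and 0 in the others. Its level in P of MDA-MB-231 was 3.33 and 1.73 times that in T in N, and 2.19 and 1.99 times in H. With PP242 it was 0.787 and 0.803 times that in T in NPP, and 0.818 and 0.541 times in HPP. These ratios rest on few counts: in N 19 and 14 in P against 7 and 5 in T, and in HPP 11 and 20 against 14 and 27. In HPP the smallest adjusted p of any HOX gene was 0.743 in the interaction test of edgeR with the culture as a block.

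The distribution between fractions in N was also compared. In MCF10A 0 of 20 HOX genes differed between P and T by edgeR, as did 0 of 13124 genes (0.00%), with 4 HOX genes at an unadjusted p under 0.05 (HOXA9, HOXA10, HOXB2 and HOXC4, all lower in P) and 0 by DESeq2. In MDA-MB-231 0 of 13 were called by edgeR against 13.1% of all genes, with 2 at an unadjusted p under 0.05 (HOXA13 and HOXB3, lower in P) and 0 by DESeq2. HOXC9 had more counts in P in both lines, at 0.69 ± 0.44 (SE) in MCF10A and 1.23 ± 0.62 in MDA-MB-231 on the log2 scale, uncalled. For HOXB9 in MDA-MB-231 the difference was −0.09 with a 95% interval from −0.44 to 0.27. These tests take P and T as independent. With the culture as a block edgeR again called 0 HOX genes in either line, beside 0 of 13124 genes in MCF10A and 1821 of 13510 in MDA-MB-231. The same 4 genes had an unadjusted p under 0.05 in MCF10A, as did HOXA13, HOXB3 and HOXC9 in MDA-MB-231.

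Genes that act with or on HOX genes were counted in HPP against N, where 14.9% of all genes were called in T and 22.2% in P of MCF10A, and 13.2% and 19.4% in MDA-MB-231. Of the 9 TALE cofactors 8 were tested in each line, and PBX3, which binds DNA with HOX proteins, was the 1 called, lower in P of MCF10A (log2FC −0.81 ± 0.25 (SE), adjusted p = 0.0379). The others ran from −0.63 (MEIS2) to 1.04 (MEIS3) in T of MCF10A, uncalled. The median of the 8 was 0.25 in T and 0.09 in P of MCF10A, and −0.10 and −0.12 in MDA-MB-231. Of 10 regulators that keep HOX genes active, all tested, WDR5, a core part of the trithorax-type complexes, fell in T of MCF10A (log2FC −0.97 ± 0.25 (SE), adjusted p = 0.0246) and of MDA-MB-231 (log2FC −0.58 ± 0.18 (SE), adjusted p = 0.0488), and in P of both. KDM6B, which removes the Polycomb mark, rose in T of MDA-MB-231 (log2FC 1.27 ± 0.27 (SE), adjusted p = 0.00855) and in P (log2FC 1.24 ± 0.28 (SE), adjusted p = 0.00725), where the scaffold MEN1 rose too (log2FC 0.40 ± 0.13 (SE), adjusted p = 0.0406).

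Of 18 Polycomb genes, all tested, 4 fell and none rose in T of MCF10A, beside 14.9% of all genes called in either direction, and 2 rose and 6 fell in P, beside 22.2%. CBX2, which reads the Polycomb mark, fell in T (log2FC −1.89 ± 0.30 (SE), adjusted p = 0.00175), as did EED, which keeps the methylating complex active (log2FC −1.06 ± 0.22 (SE), adjusted p = 0.00843), BMI1 (log2FC −1.21 ± 0.35 (SE), adjusted p = 0.0353) and RBBP4 (log2FC −0.71 ± 0.22 (SE), adjusted p = 0.0499). The 2 that rose in P were JARID2 and EZH1, and the 6 that fell there were CBX2, EED, EZH2, PCGF2, RBBP4 and RNF2. In MDA-MB-231 EED (log2FC −0.84 ± 0.15 (SE), adjusted p = 0.00318) and RBBP4 fell in T, and EED, RBBP4, SUZ12 and PCGF2 in P, so that 2 and 4 of 18 were called beside 13.2% and 19.4% of all genes, which is near the background. The median over the 18 was −0.58 in T and −0.62 in P of MCF10A, and −0.20 and −0.19 in MDA-MB-231. The insulator CTCF, whose sites divide HOX clusters, fell in T of MCF10A (log2FC −1.44 ± 0.35 (SE), adjusted p = 0.0177). Of 10 upstream regulators, 6 were tested in each line, and CYP26B1, which breaks down retinoic acid, fell in T of MCF10A (log2FC −2.45 ± 0.46 (SE), adjusted p = 0.00505) and rose in P of MDA-MB-231 (log2FC 0.64 ± 0.17 (SE), adjusted p = 0.0189). EVX1 and EVX2, the homeobox genes beside HOXA and HOXD, were under the filter in both lines.

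Non-coding RNAs of the clusters are given by CPM, as a description. HOTAIR, from the HOXC cluster, measured 1.24 to 3.75 CPM over the MCF10A libraries and at most 0.0315 CPM in MDA-MB-231, and HOTAIRM1, from the anterior end of HOXA, 1.23 to 10.8 CPM against at most 0.0217 CPM. HAGLR, from HOXD, measured 5.58 to 24.1 CPM in MDA-MB-231 and at most 0.227 CPM in MCF10A. HOXC13-AS, which shares 7.30% of the exon bases of HOXC13 on the other strand, measured 8.21 and 8.73 CPM in T of N, 8.48 and 10.2 CPM in H, 3.25 and 5.00 CPM in NPP, and 3.18 and 3.20 CPM in HPP in MCF10A. All PP242 libraries of T thus lay below those without it. In P, HOXC13-AS measured 4.34 and 5.12 CPM in N, 7.45 and 2.49 CPM in H, 1.79 and 2.87 CPM in NPP, and 3.01 and 1.10 CPM in HPP, so that replicate 2 of H lay among the libraries with PP242, unlike for HOXC13, and the part of antisense reads in the HOXC13 counts was not tested. HOTTIP, beside HOXA13, reached at most 0.0767 CPM in MDA-MB-231 and had 0 counts in MCF10A.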

How the data were processed

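The authors deposited 2 tables, 1 for each line, of expected counts per gene estimated with RSEM from STAR alignments and given as whole numbers. They were used as deposited, with no column left out. The genome build is named differently in the study's methods and in the submitters' processing notes, so no coordinate was taken from the counts. The kit, TruSeq RNA v2, was not stated to keep strand. Total counts ran from 30302497 to 46032327 per library in MCF10A and from 18340916 to 39536845 in MDA-MB-231, and the precision of a low gene is that of its counts.

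Protein-coding genes that passed filterByExpr were scaled by TMM and fitted for each line (16 libraries, 8 groups) with the quasi-likelihood F test of edgeR 4.0.16 in R 4.3.3. Adjusted p-values are Benjamini-Hochberg values over all genes tested, and a call is an adjusted p under 0.05. Biological variation was larger in MCF10A (coefficient 0.325) than in MDA-MB-231 (0.150). The lines were compared in a joint fit of 32 libraries. Levels are CPM with TMM factors over all 32 libraries, and RPKM uses exon lengths of GENCODE v44, matched for 39 of 39 HOX genes. Summed HOX counts for each 1000000 protein-coding counts leave these factors out. The fits were tested on simulated data first. Alternatives were DESeq2 1.42.0, RLE factors, no filter, all gene classes, only the libraries compared, the replicate number as a block, the culture as a block (by the number that opens the titles, for P against T and, added after seeing the data, Te) and leaving out each library.

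Values are given for each HOX gene called against N and for the gene of highest RPKM of each cluster and line. They are also given for part of the list members called in HPP. HOXC4, HOXC9, HOXB6, MEIS2 and MEIS3, the sums without 3 HOXC genes, the values of HOXC8 in MDA-MB-231 and the non-coding RNAs were added after their values were seen. The members and lists were chosen with earlier results of these data known. Replicates are biological by the labels. The p-values of the main fits measure only the spread between the 2 libraries of a group, pooled over all groups of a fit. These fits take the T and P libraries of a culture as independent. The values of 1 HOX gene, which stays in the counts, are not reported here or drawn. Promoter windows are RefSeq sequences of GRCh38.p14. Figures used matplotlib 3.10.9.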

Additional observations from a re-analysis of the deposited data

Results flagged for a closer look

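HOXC8 responded differently in the lines, by a test of the difference itself. The HPP change in MDA-MB-231 minus that in MCF10A was 5.05 on the log2 scale in T (95% interval 3.82 to 6.27) and 4.12 in P (2.91 to 5.32). Both differences kept an adjusted p under 0.05 in all 38 alternatives, by edgeR or, in 1 of them, DESeq2, with adjusted p up to 0.0176 in T and 0.0359 in P. In N the gene started at 11.9 CPM in MCF10A and 0.827 CPM in MDA-MB-231.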

How the results depend on the processing

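Of 186 counts of called or silent HOX genes recomputed under another setting, 161 stayed within 1.5 times. Fitted to the libraries compared alone, the edgeR counts in MCF10A became 0 for NPP in T, 0 for HPP against H in T, 3 for HPP in P and 1 for HPP against H in P, and in MDA-MB-231 0 for H in T, 1 for HPP in T, 0 for HPP against H in T, 0 for H in P and 1 for HPP against H in P; this fit has fewer libraries, and 23 of 41 calls of single genes were lost in it, with adjusted p from 0.0533 to 0.982. DESeq2 gave 3 for NPP in P and 1 for Te in NPP in MCF10A, 1 for HPP against H in P and 1 for Te in HPP in MDA-MB-231, and 2 for the line difference in P. RLE factors gave 1 for NPP in T, and no filter 3 for HPP against H in T, in MCF10A. The 2 Te calls of MDA-MB-231 in HPP became 0 with the interaction test, with that test and the culture as a block, without a filter or with all gene classes, and 1 with the polysomal thresholds of the lines exchanged. The HOXC5 Te difference reversed to 0.78 without replicate 1 of T in HPP, and over the left-out libraries it ran from −1.82 to 0.78. Silent genes numbered 6 in MCF10A and 1 in MDA-MB-231 at 0 counts, and 26 in MDA-MB-231 at 0.5 CPM. The cause of the other changes was not tested.

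With 1 library left out, counts ran in MCF10A from 0 to 1 for H in T, 0 to 1 for NPP in T, 2 to 7 for HPP in T, 1 to 5 for HPP against H in T, 0 to 2 for NPP in P, 3 to 8 for HPP in P and 1 to 6 for HPP against H in P. In MDA-MB-231 they ran from 0 to 1 for H in T, 0 to 3 for HPP in T, 0 to 1 for HPP against H in T, 0 to 1 for H in P, 2 to 4 for HPP in P, 0 to 2 for HPP against H in P, 0 to 1 for Te in HPP and 17 to 19 for silent genes. The line difference in P gave 1 to 2.

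With the replicate number as a block, 1 of 27 counts moved, HPP against H in T of MDA-MB-231, to 2, and the 44 gene results kept their side of the threshold. Deviations of same-numbered libraries correlated from −0.641 to 0.778 in MCF10A and −0.187 to 0.348 in MDA-MB-231, with 11 and 19 of 28 pairs of groups over 0.1, so the number as a whole was not taken to pair the groups. Among the T groups of MCF10A all 6 correlations lay between 0.283 and 0.778. For P against T in N the culture as a block left the counts at 0 in both lines. Depth limits the lowest genes: 3 counts over both T libraries of N equal 0.0395 CPM in MCF10A and 0.0562 CPM in MDA-MB-231.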
